A study of Mus musculus with 8 samples.

Results

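The fusion of mononucleated myoblasts into myotubes was followed here through 9 genes, *Mymk*, *Mymx*, *Cdh15*, *Cdh2*, *Jam2*, *Jam3*, *Dock1*, *Elmo2* and *Nfatc2*, which were taken by name because they act in the adhesion, membrane merger or signalling steps of fusion. All 9 were present among the 27179 entries of the expression table, under the Entrez identifiers 66139, 653016, 12555, 12558, 67374, 83964, 330662, 140579 and 18019, and 8 of them passed the filter on low values that left 11406 genes for testing. *Nfatc2* did not pass it. They were measured in C2C12 cells, an immortalized mouse myoblast line grown on collagen, for which the labels name no genetic change, and 1 line grown in a dish stands here for the myoblasts of a muscle. Cells in growth medium (GM) were sampled in 10% fetal bovine serum at 50% confluence, and cells in differentiation medium (3d DM) 3 days after a switch to 2% horse serum above 90% confluence. For each state there were 2 input libraries of polyadenylated RNA, which give the expression values, and 2 libraries of the same kind of RNA precipitated with an antibody against N6-methyladenosine (m6A), an adenosine mark of mRNA, which give the peak lists. Nothing in the sources used here says that the replicates came from separate cultures, so p-values rest only on the spread between these samples, which may be technical. With the deposited RNA values that spread was pooled over genes of like intensity and not taken from the replicates of each gene. Values of a state are always given in the order replicate 1, replicate 2.

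Myoblasts that leave the cell cycle recognise each other through surface adhesion molecules, rearrange cortical actin at the contact and then merge their membranes. The last step needs Myomaker (*Mymk*, formerly Tmem8c), a membrane protein with several transmembrane segments, and Myomerger (*Mymx*, formerly Gm7325, also called Myomixer), a micropeptide, both made mainly in fusing muscle cells. The m6A mark is laid down by a nuclear writer complex, mostly near stop codons and in 3′ untranslated regions, within short sequence motifs that commonly hold the letters GGAC.

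The marker genes described the 2 states as labelled. All 10 genes of differentiated muscle rose in 3d DM and all 6 genes of cycling cells fell (limma, adjusted p under 0.05), and the summed values of the muscle list were 11250 and 2292 in the GM libraries against 176700 and 217500 in the 3d DM libraries. In GM, replicate 1 stood above replicate 2 for 9 of these 10 genes. Of 5 genes that mark myoblasts 1 rose, 2 fell and 2 did not pass. *Myod1*, the determination factor, lay between 1016 and 1713 in all 4 libraries. The summed values of 5 endothelial genes were 0 to 10.5 and those of 5 genes of blood cells and macrophages 18.1 to 26.4. The sums of 5 fibroblast, 5 adipocyte and 5 bone genes were higher, at 53.27 to 761.6, 44.57 to 146.1 and 239.9 to 674.4. *Pparg* made up nearly all of the adipocyte sum and *Runx2* most of the bone sum. *Myh8* of the muscle list passed the filter on low values only through its 3d DM libraries, and *Ckm* reached it in only 1 GM library. *Msc*, a myoblast gene that fell, passed it only through its GM libraries. Their calls are no independent support. The depth of the libraries is unknown, because the table holds normalized values whose columns all sum to nearly the same total.

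Before the levels, the sequences under the m6A peaks are shown for the members where a peak held one of the 3 motifs searched, which are GGACT, the variant GGACA with a final A, and the variant GGACC with a final C, each read on the strand of the gene only. Peaks of the 4 lists that share at least 1 bp of exon were joined into regions, and the bases shared by every list that calls a region were searched in 15 of the 16 regions. The remaining one, in the coding sequence of *Cdh2*, was not searched because an intron splits its shared bases. *Cdh15* had 4 GGACT, 2 GGACA and 1 GGACC within 508 shared bases around its stop codon, the longest stretch searched and the one with the most matches. The other matches were single ones in the 3′ untranslated regions (UTR) of *Jam2*, *Jam3* and *Elmo2*. The 4 GGACT sites of *Cdh15* and the 4 sites of the other genes are printed 5′ to 3′ with 10 bases on each side and with the motif in capitals, from mm10 and with exons from GENCODE release M21. All lie in the last exon of their transcript (exon 14 of *Cdh15*, 10 of *Jam2*, 9 of *Jam3* and 22 of *Elmo2*).
Cdh15, CDS, 64 nt before its end, chr8:122866944-122866968, plus strand: atgaagaccaGGACTatgactacct
Cdh15, CDS, 46 nt before its end, chr8:122866962-122866986, plus strand: actacctccgGGACTggggaccccg
Cdh15, 3′ UTR, 175 nt after the CDS, chr8:122867183-122867207, plus strand: gtccaagagaGGACTgagtcaggag
Cdh15, 3′ UTR, 211 nt after the CDS, chr8:122867219-122867243, plus strand: tctggagcatGGACTaggcagctag
Jam2, 3′ UTR, 960 nt after the CDS, chr16:84823764-84823788, plus strand: gtcctgttggGGACTactttaccca
Jam2, 3′ UTR, 2667 nt after the CDS, chr16:84825471-84825495, plus strand: aaccaacccaGGACCcactttttgt
Jam3, 3′ UTR, 436 nt after the CDS, chr9:27097921-27097945, minus strand: cttgctccctGGACCctgacccacc
Elmo2, 3′ UTR, 252 nt after the CDS, chr2:165290100-165290124, minus strand: atctggtactGGACCtactgacagc

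Windows of equal length gave the frequency of these motifs elsewhere. In 200 bases centred on the shared part of each region called in all 4 lists, 27.6% of 5756 windows of all genes held GGACT, 33.2% GGACA, 24.2% GGACC and 62.3% any of the 3, and of the 7 windows of the members 2, 0, 4 and 5 did. A match is a description of the letters and not a mapped m6A site. The shared bases of the *Mymk* region (209 bases), the *Mymx* region (61 bases) and the *Dock1* regions (31 and 61 bases) held none of the 3 motifs. Nor did those of the searched *Cdh2* regions (61, 60, 9, 96 and 180 bases) or of the other *Jam3* region (61 bases).

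The 2 fusogens had by far the largest change in RNA level of the 9 genes. *Mymk* (chr2:27061636-27072179, minus strand) had normalized values of 697.8 and 101.4 in GM, against 6608 and 8672 in 3d DM. Both 3d DM values lay above both GM values, but the GM replicates stood 6.88-fold apart. The mean rose from 399.6 ± 422 to 7640 ± 1460 (SD, n = 2), a log2 fold change, 3d DM minus GM, of 4.82 with a standard error of 0.42 (limma, adjusted p = 6.21e-28). That standard error followed the general trend with intensity, not the replicates of *Mymk*. After rescaling the libraries by median-of-ratios factors, where the replicates enter, the log2 fold change was 5.03 ± 0.72 (SE; limma, adjusted p = 0.00527).

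*Mymx* (chr17:45600971-45602102, minus strand) had values of 68.84 and 9.065 in GM, against 603.1 and 1327 in 3d DM. It showed the same order of libraries within GM, with replicate 1 at 7.59 times replicate 2, and the 3d DM replicates were 2.2-fold apart. In GM only replicate 1 reached the filter value of 25.1, so *Mymx* would not have been tested without its 3d DM libraries. The mean rose from 38.95 ± 42.3 to 965 ± 512 (SD, n = 2), a log2 fold change of 5.08 ± 0.49 (SE; limma, adjusted p = 3.37e-23). After median-of-ratios rescaling it was 5.28 ± 0.76 (SE; limma, adjusted p = 0.00536). Among the tested genes *Mymx* ranked 115 and *Mymk* 140 from the highest log2 fold change down, and the median over all of these genes was -0.22. Of the 8 tested members these 2 were called higher and 0 were called lower, where 7.01% of all tested genes were called higher and 9.96% lower (limma). At an unadjusted limma p under 0.05, *Cdh2* was higher in addition (limma, unadjusted p = 0.0284) and *Dock1* was lower (limma, unadjusted p = 0.0155), where 9.63% of all tested genes were higher and 16.6% lower.

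Both calls were lost when either 3d DM library was left out, where the lone library of a state is assumed to vary like the other state. There the standard error took in the GM replicates of the gene itself (prior degrees of freedom 4.26 without 3d DM replicate 1 and 4.18 without replicate 2). With either GM library left out the prior degrees of freedom were infinite, so it did not take in the replicates of the gene. Without 3d DM replicate 1 the adjusted p was 0.0874 for *Mymk* and 0.0774 for *Mymx*, and without 3d DM replicate 2 it was 0.0746 and 0.0871 (limma). The log2 fold changes stayed at 5.02 and 5.65 without 3d DM replicate 1 and at 4.63 and 4.51 without 3d DM replicate 2. Leaving out a GM library kept both calls but moved the size, to log2 fold changes of 6.21 for *Mymk* and 6.48 for *Mymx* without GM replicate 1 and of 3.44 and 3.68 without GM replicate 2. Over all alternatives the adjusted p of *Mymk* ran from 4.29e-28 to 0.368 and that of *Mymx* from 2.96e-25 to 0.375. The higher value of both genes in GM replicate 1 went with the higher sum of the muscle markers in that library. The sum of 5 fibroblast markers was also higher there, at 532.3 against 53.27 in GM replicate 2, with 483.1 and 761.6 in the 3d DM libraries. *Dcn* made up most of it except in GM replicate 2, where *Dcn* was at 17.11 and *Pdgfra* at 36.15. The part of either list in the result was not tested. In such bulk libraries more cells of a type and more RNA in each cell cannot be told apart.

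**Figure D1:**
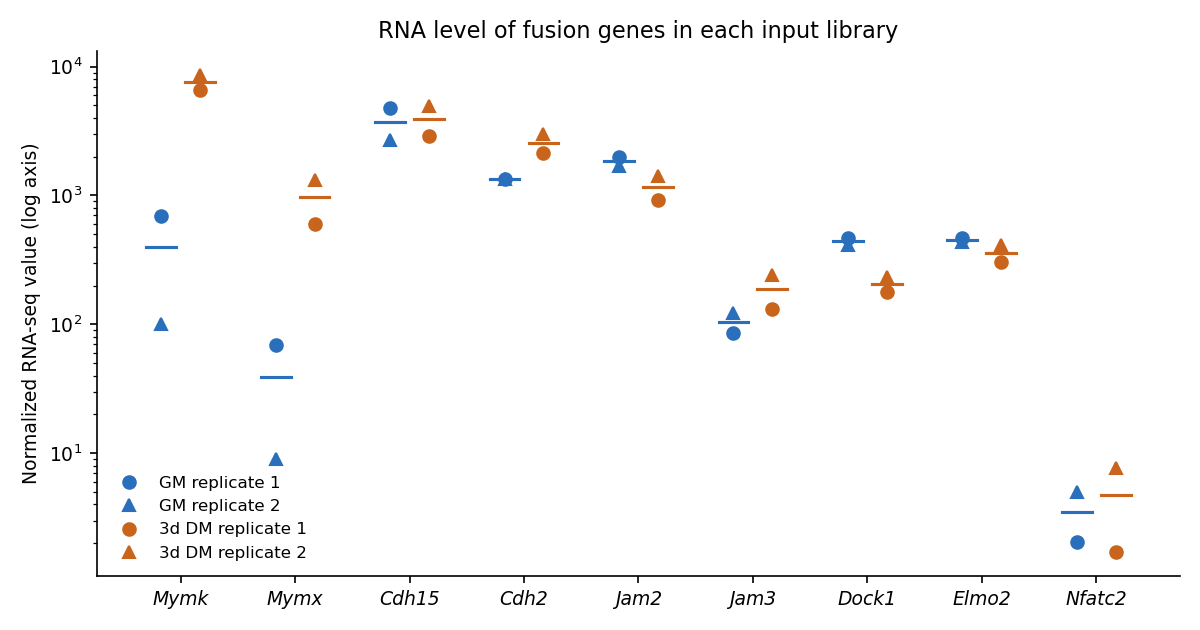
Normalized RNA-seq value (log axis) of the 9 fusion genes in the 2 GM and 2 3d DM input libraries, with points for libraries and bars for the mean of each state. *Mymk* and *Mymx* rise by more than any other of the 9, from means of 399.6 and 38.95 to 7640 and 965, and their GM replicates are the farthest apart in ratio, while *Nfatc2* is at most 7.679 in every library.

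Levels of different genes were compared per kilobase of exon in any annotated transcript of a gene. That length was 6652 bases in *Elmo2*, where the transcript used for positions has 3502, but 3251 by either measure in *Cdh15*. Places that lie close together can therefore depend on the length chosen. *Mymk* went from the third place of the 9 genes in GM, at 264 (67.1 and 462 in the 2 libraries), to the first in 3d DM, at 5060 (4370 and 5740). *Mymx* went from the seventh place, at 37.9, to the third, at 940. In GM the range of *Mymk* overlapped those of its neighbours *Jam2* and *Cdh2*, and the range of *Mymx* those of *Dock1* and *Jam3*. In 3d DM *Mymk* stood clear of *Cdh15*, the next gene, whereas *Mymx* overlapped *Cdh15*. The per-kilobase level of *Mymk* was 6.89, 7.6, 7.45 and 4.44 times that of *Mymx* in the GM and then the 3d DM libraries, so that *Mymk* was the more abundant in all 4 libraries.

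The tested genes with the most similar pattern were sought by the Euclidean distance between log2(value + 1) over the 4 input libraries after subtracting the mean of each gene. For *Mymk* they were *Atp2a1*, the calcium pump of fast muscle sarcoplasmic reticulum, at a distance of 0.14, *Lmod3*, an actin nucleator of the sarcomere, at 0.16, and *Hjv*, a co-receptor for bone morphogenetic proteins, at 0.26. For *Mymx* they were *Ctxn3* at 0.16, *Lmod3* at 0.52 and *Mymk* itself at 0.59, whereas *Mymx* was only the 20th gene in order from *Mymk*. *Ctxn3* had values of 6.435, 0.005575, 59.7 and 119.7 in the GM and then the 3d DM libraries. It passed the filter only through its 3d DM libraries, so its likeness to *Mymx* is no independent support. These distances rest on 4 libraries.

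The cadherins hold apposed myoblasts together through calcium-dependent binding. *Cdh15*, which encodes M-cadherin and is largely restricted to muscle cells (chr8:122847966-122867397, plus strand), had values of 4813 and 2675 in GM, against 2914 and 4990 in 3d DM. The 2 states overlapped over most of their ranges, and the means were 3744 ± 1510 and 3952 ± 1470 (SD, n = 2). The log2 fold change was 0.09 with a 95% interval from -0.71 to 0.89 (limma, adjusted p = 0.932), so a change of a size within that interval remains possible. *Cdh15* had the highest level per kilobase of the 9 genes in GM, at 1150 against 305 for *Jam2*, the next gene, and did not overlap it.

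*Cdh2*, which encodes N-cadherin, had values of 1346 and 1341 in GM, against 2120 and 3023 in 3d DM. The GM libraries were nearly equal and both 3d DM libraries lay above them. The means were 1343 ± 3.46 and 2572 ± 639 (SD, n = 2), and the log2 fold change of 0.91 ± 0.42 (SE) did not pass (limma, adjusted p = 0.127). After rescaling the libraries by median-of-ratios factors it did, at 1.12 ± 0.19 (limma, adjusted p = 0.00877), with a range over all alternatives from 0.00877 to 0.633. This rescaling moved the median of all tested genes from -0.22 to -0.02, and under it the standard error takes in the replicates of the gene itself, whereas with the deposited values it followed the general trend with intensity. It called 12.1% of all tested genes higher and 11.8% lower, and of the members 3 higher (*Mymk*, *Mymx* and *Cdh2*) and 1 lower (*Dock1*).

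The junctional adhesion molecules are immunoglobulin-type surface proteins that bind each other across the cell contact. *Jam2* (chr16:84774123-84825928, plus strand) had values of 1994 and 1691 in GM, against 920 and 1428 in 3d DM. Both 3d DM values lay below both GM values, and the log2 fold change was -0.68 ± 0.42 (SE; limma, adjusted p = 0.318). *Jam3* (chr9:27097384-27155421, minus strand), whose product binds that of *Jam2*, was less abundant per kilobase (32.7 against 305 in GM) and had values of 86 and 123.4 in GM, against 132.6 and 241.7 in 3d DM. Its 3d DM values lay above its GM values, though by little between GM replicate 2 and 3d DM replicate 1, and the log2 fold change was 0.79 ± 0.49 (SE; limma, adjusted p = 0.322). Neither passed under any alternative that was run, and the lowest adjusted p reached was 0.0962 for *Jam2* and 0.0761 for *Jam3*, both after median-of-ratios rescaling (limma).

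*Dock1* and *Elmo2* encode both parts of an exchange factor that loads the GTPase Rac, which drives the actin remodelling at the contact. *Dock1* (chr7:134670654-135173639, plus strand) had values of 469.9 and 411.4 in GM, against 176.8 and 233.1 in 3d DM. Both 3d DM values were well under both GM values, with means of 440.7 ± 41.3 and 204.9 ± 39.8 (SD, n = 2). The log2 fold change of -1.11 ± 0.46 (SE) did not pass with the deposited values (limma, adjusted p = 0.0792), and did after median-of-ratios rescaling, at -0.91 ± 0.2 (limma, adjusted p = 0.0201, with a range from 0.0199 to 0.544 over all alternatives).

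*Elmo2* (chr2:165288031-165326479, minus strand) had values of 469.9 and 437.5 in GM, against 303.6 and 415.9 in 3d DM. The 3d DM libraries lay below, replicate 2 only just. The log2 fold change of -0.35 had a 95% interval from -1.23 to 0.53 (limma, adjusted p = 0.709), and it was -0.15 after median-of-ratios rescaling. The difference between *Dock1* and *Elmo2* was not tested.

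*Nfatc2* encodes a calcineurin-dependent transcription factor that acts in the later growth of myotubes by addition of cells. Its values were 2.031 and 5.012 in GM, against 1.717 and 7.679 in 3d DM, all far under the 25.1 that the filter asks for in 2 libraries. The states overlapped, and no fold change is given. It was the least abundant of the 9 genes per kilobase, at 0.333 in GM and 0.444 in 3d DM.

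**Figure D2:**
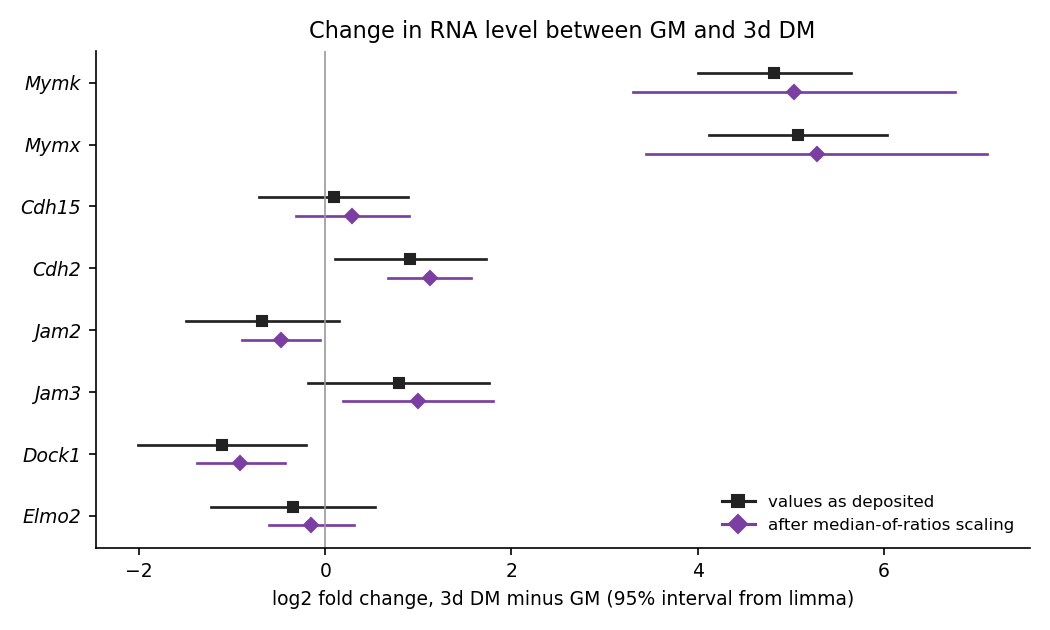
Log2 fold change (3d DM minus GM) of the 8 tested fusion genes with 95% intervals from limma, for the deposited values (squares) and after median-of-ratios rescaling (diamonds). The intervals are not adjusted for the number of genes tested. Those of *Mymk* and *Mymx* lie above 3 under both scalings. Those of *Cdh2* lie above 0 and those of *Dock1* below 0 under both, though neither gene passed with the deposited values. The rescaled intervals of *Jam2* and *Jam3* also leave out 0, though neither gene passed. The intervals of *Cdh15* and *Elmo2* include 0.

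Of the 8 tested genes, 4 had both 3d DM values above both GM values (*Mymk*, *Mymx*, *Cdh2* and *Jam3*), where 16.8% of all tested genes did. The reverse held for 3 (*Jam2*, *Dock1* and *Elmo2*), against 37.0% of all tested genes. The median log2 fold change of the 8 was 0.44 and that of all tested genes -0.22. For *Jam2*, *Jam3* and *Dock1* the annotation holds other genes at the same place (*Gm46557* at *Jam2*, *LOC115487155* at *Jam3*, *Insyn2a* and *Gm24581* at *Dock1*), and since the counting and its use of strand are not given in the sources used here, reads of these pairs may have been shared.

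Most genes of a wider set with roles in fusion did not pass the test. Of 71 other genes in 4 lists, 70 were in the table and 57 were tested. Of these, 9 rose, 7 fell and 41 did not pass (limma, adjusted p under 0.05), which is 15.8% higher and 12.3% lower beside the 7.01% and 9.96% of all tested genes. Their median log2 fold change was -0.23 beside -0.22 for all tested genes. After median-of-ratios rescaling 9 rose and 9 fell, where 12.1% of all tested genes were called higher and 11.8% lower. Every library left out alone lowered these counts. The counts of all tested genes called higher and lower fell in each of the same fits, so the drop is not particular to the fusion genes.

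Among genes of adhesion and the cell surface, 3 of 19 tested rose and 2 fell. *Ncam1*, a neural cell adhesion molecule of myotubes, had values of 1524 and 1186 in GM, against 6414 and 8894 in 3d DM (log2 fold change 2.49 ± 0.41, SE; limma, adjusted p = 4.21e-08). *Cdh11*, another cadherin, had values of 5.167 and 9.024 in GM, against 28.81 and 56.64 in 3d DM (log2 fold change 2.40), and passed the filter on low values only through its 3d DM libraries, so its call is no independent support. *Adam12*, a metalloprotease of fusing cells, had 33.12 and 199.6 in GM, against 242 and 310 in 3d DM, and its log2 fold change of 1.73 did not pass after median-of-ratios rescaling. The 2 that fell were *Cd44*, a hyaluronan receptor (log2 fold change -1.69), and *Vcam1*, a ligand of integrins (-1.47). *F11r*, the paralog of *Jam2* and *Jam3*, had means of 165.6 ± 73.8 in GM and 320.9 ± 48.3 in 3d DM (SD, n = 2) and did not pass with the deposited values (log2 fold change 1.02; limma, adjusted p = 0.134), but did after median-of-ratios rescaling (log2 fold change 1.22; limma, adjusted p = 0.0245).

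Of 19 tested genes in the list of Rac, actin and membrane genes, 3 rose and 3 fell. *Dysf*, the membrane repair protein dysferlin, had values of 82.22 and 39.16 in GM, against 1070 and 1430 in 3d DM (log2 fold change 4.42 ± 0.46, SE; limma, adjusted p = 1.75e-19). *Trio*, an exchange factor for Rac, had 1092 and 1269 in GM, against 3697 and 3917 in 3d DM (log2 fold change 1.69), a direction opposite to the values of *Dock1*. The genes that fell were *Diaph3*, a formin that also acts in cell division, at a log2 fold change of -2.46, *Wipf1*, which binds the actin regulator WASP, at -1.47, and *Arf6*, a GTPase of membrane traffic, at -1.37. *Dock5*, the close paralog of *Dock1*, had means of 712.9 ± 141 and 421.9 ± 8.72 (SD, n = 2) and did not pass (log2 fold change -0.74; limma, adjusted p = 0.29). *Elmo1* and *Elmo3*, the paralogs of *Elmo2*, were below the filter, with values of 2.816 to 4.012 and 9.792 to 28.68 in the 4 libraries, so that *Elmo2* was the only 1 of the 3 that was tested.

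In the list of NFAT and cytokine signals 1 of 13 tested genes rose and 0 fell. It was *Fst*, the myostatin antagonist follistatin, with values of 39.74 and 63.2 in GM, against 1459 and 2288 in 3d DM (log2 fold change 5.16 ± 0.46, SE; limma, adjusted p = 5.28e-27). The paralogs of *Nfatc2* were above the filter but did not pass, with log2 fold changes of -0.29 for *Nfatc1*, -0.40 for *Nfatc3* and 0.99 for *Nfatc4*. Of the 6 tested genes for phagocytosis receptors and exposure of phosphatidylserine, 2 rose and 2 fell, and *Anxa1*, a phospholipid-binding annexin, fell from 7161 ± 840 to 2410 ± 547 (SD, n = 2; log2 fold change -1.58; limma, adjusted p = 0.00113).

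**Figure D3:**
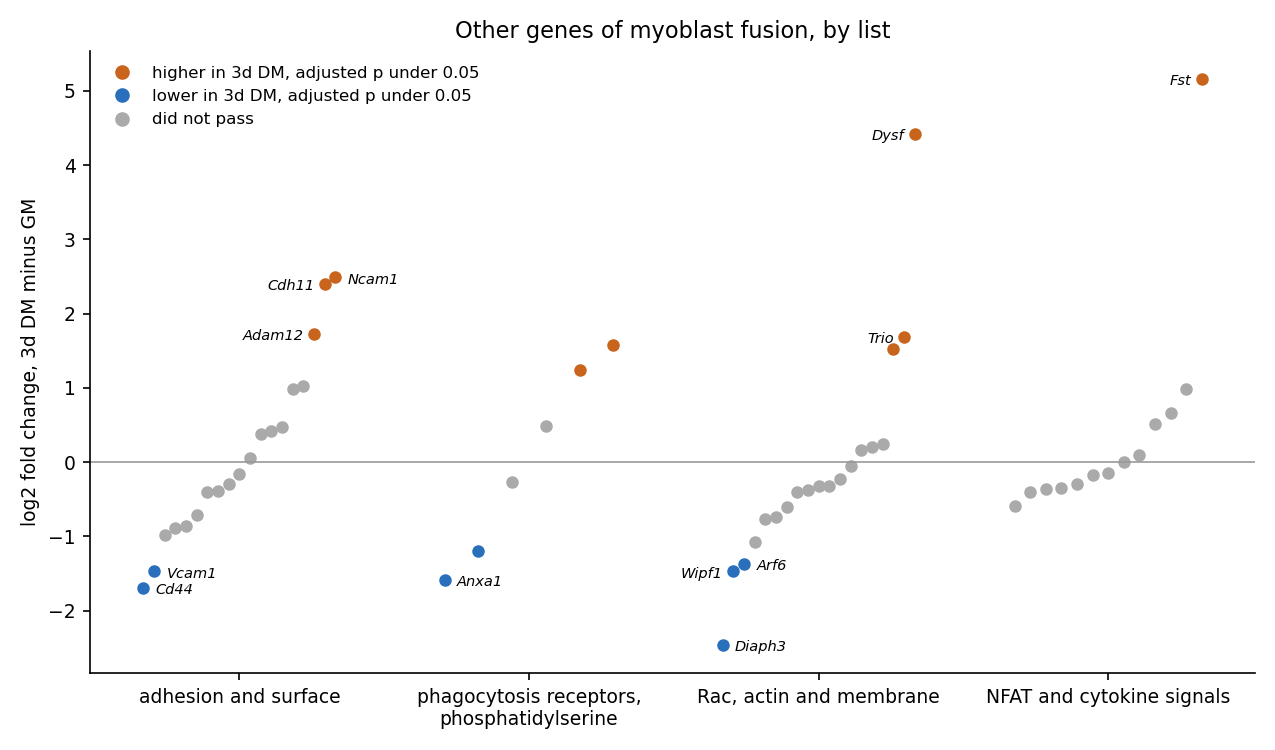
Log2 fold change (3d DM minus GM) of the 57 other fusion genes tested, in 4 lists, with 1 point per gene ordered by value within its list. The 9 genes that rose and 7 that fell (limma, adjusted p under 0.05) are coloured and the 41 others are grey, and *Fst* and *Dysf* stand highest at 5.16 and 4.42.

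In the m6A peak lists, 8 of the 9 members were called in 1 list or more. The numbers were 7 members in GM replicate 1, 6 in GM replicate 2 and 7 in each 3d DM replicate, and the percentages of all tested genes with a peak in those lists were 63.0%, 59.6%, 61.9% and 52.8%. The means of 6.5 ± 0.707 in GM and 7 ± 0 in 3d DM (SD, n = 2) did not differ beyond the spread (two-sided exact permutation test, p = 1.0, where 0.33 is the smallest p that 2 against 2 allows). The peaks joined into 16 regions, of which 13 carry a 3′ UTR label. Of the 16, 7 were called in all 4 lists, on 6 genes (*Mymx*, *Cdh15*, *Cdh2*, *Jam2*, *Dock1* and *Elmo2*), where 30.8% of the 19683 regions of all genes were. Another 7 were called in 1 list each. The shares over all genes were not computed for the 3′ UTR label, for regions in 1 list or for genes called in any list. These counts therefore only describe the members.

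Of the fusogens, *Mymx* had a peak in every list and *Mymk* in 1. The *Mymx* peaks lay in its 3′ UTR, and only that of 3d DM replicate 2 reached the stop codon, with fold enrichments of 12.2 and 4.27 in GM, against 2.47 and 4.96 in 3d DM. The value in GM replicate 1 was the highest, and the states overlapped. It came with the weakest P of the 4, 0.00115, against 3.8e-07, 2.51e-36 and 1.58e-36 in the other lists, and *Mymx* RNA was at 68.84 or less in GM. The log2 difference, 3d DM minus GM, was -1.04 with a 95% interval from -2.24 to 0.15 (limma, adjusted p = 0.999). *Mymk* had no peak in GM or in 3d DM replicate 1, although its value was 6608 in the latter. Its single peak, in 3d DM replicate 2, had a fold enrichment of 1.96, at or above only 4.7% of the peak regions of that list, and it covered 347 to 555 nt after the CDS, up to the end of the transcript.

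*Cdh15* had 1 region, from the last part of its coding sequence to the end of its 3′ UTR, with fold enrichments of 3.16 and 3.61 in GM, against 2.53 and 2.92 in 3d DM. Both 3d DM values lay below both GM values, by a log2 difference of -0.31 (95% interval -1.08 to 0.45; limma, adjusted p = 0.999). It holds the 4 GGACT sites printed above. *Cdh2* had 6 regions, more than any other member, and 2 of them were in all 4 lists. At the last 270 bases of its 3′ UTR the fold enrichments were 7.33, 4.43, 5.06 and 6.53 in the GM and then the 3d DM libraries, without an order between the states. Near its stop codon they were 5.42, 7.3, 3.8 and 1.82, lower in both 3d DM libraries, with a log2 difference of -1.26 ± 0.45 (SE; limma, unadjusted p = 0.015, adjusted p = 0.999), but the peaks there only chain into each other and share no more than 9 bp.

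*Jam2* had 2 regions in its long 3′ UTR. The far one, 2304 to 3022 nt after the CDS at its widest, was in all 4 lists with fold enrichments of 4.54 and 3.43 in GM, against 3.28 and 4.56 in 3d DM, equal in range in the 2 states. The near one was called in 3 lists, at 3.54 and 2.35 in GM, against 3.03 in 3d DM replicate 1, and was not called in 3d DM replicate 2. *Jam3* had a peak in GM replicate 1 at 149 to 209 nt after the CDS and another in 3d DM replicate 1 at 328 to 477 nt, which did not overlap, so no *Jam3* region was seen in more than 1 library.

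*Dock1* was the only member with a region in all 4 lists whose enrichment was above GM in both 3d DM libraries. Within 51 to 290 nt after its CDS, fold enrichments of 3.37 and 2.77 in GM, against 7.76 and 7.1 in 3d DM, were listed. The 2 states were well apart, but the peaks of the 4 lists share only 31 bp, so the fold enrichments come from partly different bases. The RNA values of the gene were lower in both 3d DM libraries, a change that did not pass with the deposited values. The log2 difference was 1.28 ± 0.43 (SE; 95% interval 0.36 to 2.2; limma, unadjusted p = 0.00983) and did not pass after adjustment over the 6055 regions called in all 4 lists (limma, adjusted p = 0.999). The P values of the peaks were between 1.55e-05 and 0.00141, so this region is lost from all 4 lists at a threshold of 1e-05. *Elmo2* showed the opposite order, with 4.69 and 9.39 in GM, against 3.81 and 3.86 in 3d DM, and a log2 difference of -0.79 ± 0.47 (SE; limma, adjusted p = 0.999).

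No region of any gene passed this test. Of the 6055 regions 0 were called (0.0%), 211 (3.48%) had an unadjusted limma p under 0.05, and 1 was called when the peaks were restricted to a P of at most 1e-05. Both 3d DM values lay above both GM values in 9.05% of the 6055 regions and below them in 21.4%, and in 1 and 3 of the 7 member regions. A fold enrichment is a ratio to the input RNA of the same library, the lists give no read numbers, and absence from a list does not show absence of the mark.

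**Figure D4:**
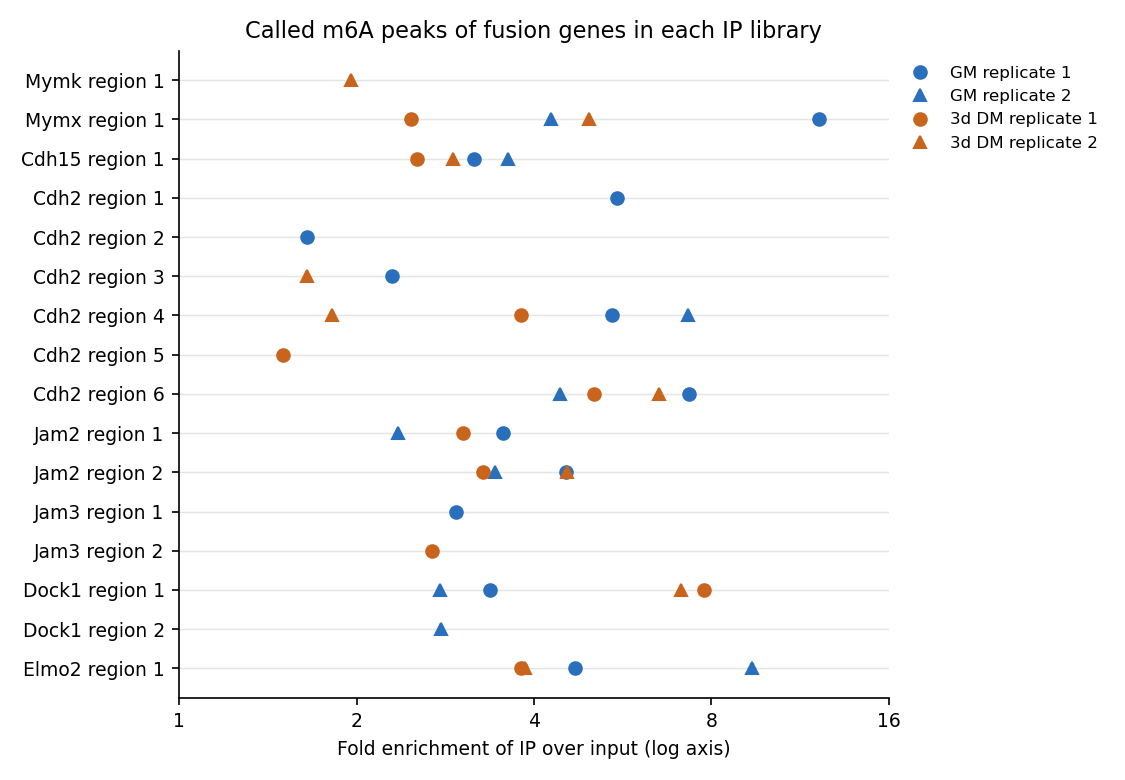
Fold enrichment of immunoprecipitated over input RNA (log axis) for the 16 peak regions of the fusion genes, with 1 point for each library that lists the region and no point where it does not. For *Dock1* region 1 both 3d DM points, 7.76 and 7.1, lie to the right of the GM points, 3.37 and 2.77, and *Mymk* has 1 point only, at 1.96.

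Along the transcripts, the regions in all 4 lists were centred after the stop codon, except for the chained *Cdh2* region, whose 9 shared bases lie at -188 nt, before it. The midpoint of the bases shared by the 4 lists was 211 nt after the end of the CDS in *Mymx*, 124 nt in *Cdh15*, 186 nt in *Dock1* and 207 nt in *Elmo2*, and farther in *Cdh2* (1183 nt) and *Jam2* (2664 nt). Only *Cdh2* had regions away from its 3′ end, in its 5′ UTR and at 2 places in the coding sequence, and the first 2 of these were called in GM replicate 1 alone.

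**Figure D5:**
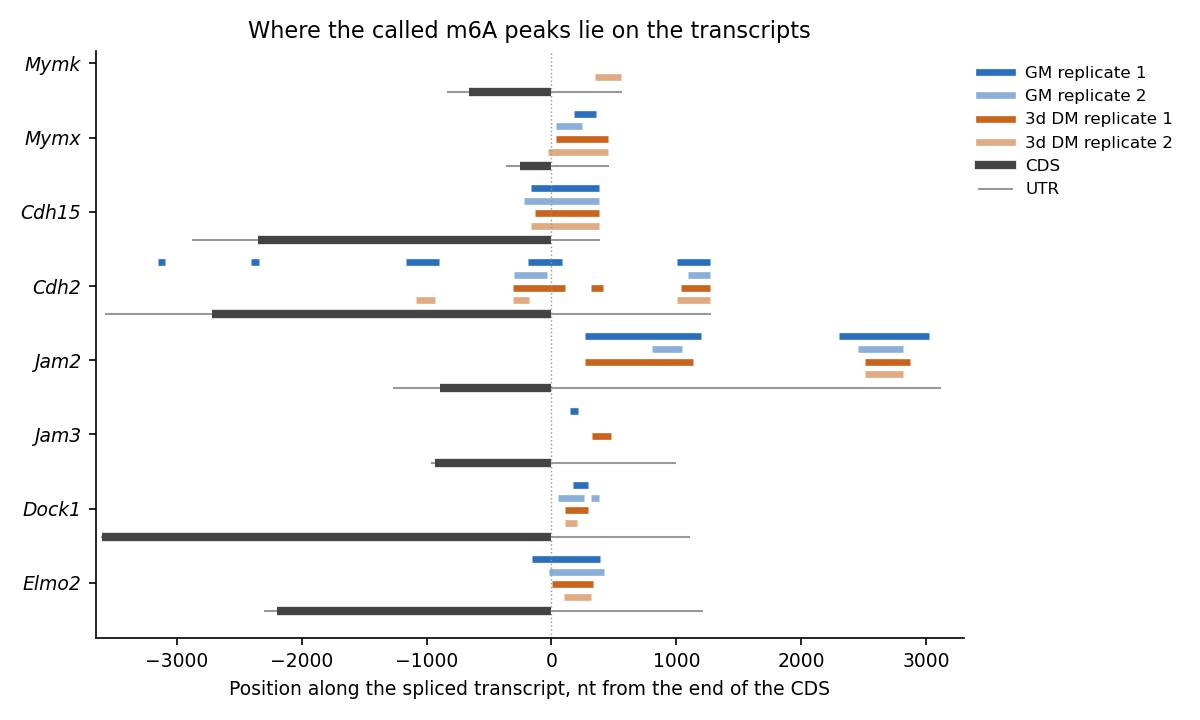
Position of each called peak (coloured bars, 1 row per library) along the spliced transcript, in nt from the end of the CDS, for the 8 fusion genes with a peak, with the CDS as a thick line and the UTRs as thin lines (the CDS of *Dock1* runs past the left edge). Peaks of *Mymx*, *Cdh15*, *Dock1* and *Elmo2* gather within 449 nt of the stop codon, and those of *Jam2* reach 3022 nt after it.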

How the data were processed

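C2C12 myoblasts in GM and 3d DM were profiled by RNA-seq of input RNA and by MeRIP-seq (2 libraries each per state). The authors aligned reads to mm10 with HISAT2 (version 2.1.0, per the submitters' processing notes and the paper's methods). Gene values in the deposited expression table are a normalized signal, made by the authors with edgeR and labelled TMM. Reads could not be recovered from it, so depth is unknown and no counting error is given. Low values recur in pairs over genes within a state (*Tmsb4x* and *Lum* were both at 1.065 and 0.001043 in GM), as in quantile-adjusted pseudo-counts, so a value may depend on its replicate, and the spread between replicates, and p-values with it, may differ from that of the reads. The authors' peak caller was exomePeak, run on every sample with its matching input. Each deposited list gives, per peak and transcript, a p-value and a fold enrichment, the ratio of immunoprecipitated to input RNA.

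For RNA levels, limma 3.58.1 in R 4.3.3 was fitted with its trend option to log2(value + 1). Genes needed a value of 25.1 or more, 2 cpm of the column total, in at least 2 input libraries. P-values were adjusted by Benjamini-Hochberg over all 11406 genes at a threshold of 0.05. With the deposited values the prior degrees of freedom were infinite, so that standard errors follow intensity and not the replicates of a gene. Log2 fold enrichments of regions in all 4 lists were tested in the same way over 6055 regions, with the peak of lowest P for each list. Peak numbers were compared by an exact permutation test. Genes were matched to RefSeq symbols by Entrez identifier and to GENCODE M21 transcripts for positions and exon lengths. Python 3.11.15, numpy 2.4.6, pandas 2.3.3 and matplotlib 3.10.9 were used.

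The genes named are the 9 members, up to 6 other fusion genes per direction with the largest change among those passing, the paralogs of members, markers that describe a list, and the 3 genes nearest to *Mymk* and *Mymx* in pattern. *Tmsb4x*, *Lum* and *Dcn* were named after their values were seen. The members and lists were chosen with earlier results of these data known. The alternatives were other filters, a block for the replicate number, no intensity trend, pseudocounts of 0.1 and 4, rescaling by median-of-ratios or trimmed-mean factors, stricter peaks, another overlap rule, and each replicate left out. The marker lists of fibroblasts, adipocytes and bone were also summed, as 53.27 to 761.6, 44.57 to 146.1 and 239.9 to 674.4 over the 4 libraries.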

Additional observations from a re-analysis of the deposited data

How the results depend on the processing

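With 2 libraries per state, tests rest on few values, and depth is unknown for both kinds of library. Against 800 genes called higher and 1136 lower over all genes, the filter of 3 libraries gave 524 higher, no filter 80 and 74, median-of-ratios rescaling 1377 higher and 1341 lower, trimmed-mean rescaling 1367 higher and 1354 lower, and leaving out 1 replicate 101 to 679 higher and 44 to 573 lower. Of the members, 2 higher and 0 lower as reported, no filter called 0 higher, both rescalings called 1 lower, and leaving out 1 replicate gave 0 to 2 higher and 0 lower. Of the other fusion genes, 9 higher and 7 lower, no filter called 0 and 0, and leaving out 1 replicate gave 3 to 6 higher and 0 to 4 lower. Without a filter, 27179 entries were tested with prior degrees of freedom of 0.794, and the adjusted p of *Mymk* and *Mymx* was 0.368 and 0.375 at log2 fold changes of 4.82 and 5.08, the same as reported (limma). The prior degrees of freedom were also finite after median-of-ratios (4.39) and trimmed-mean rescaling (4.53) and without 3d DM replicate 1 (4.26) or 2 (4.18). In the remaining fits of RNA levels they were infinite. The cause of the other changes was not tested. The difference in members with a peak, 0.5 as reported, was 0 for peaks with a fold of at least 4 and 0 to 1 with 1 replicate left out. Peaks with a P of at most 1e-05 gave 1 region with higher enrichment in 3d DM, where the report gives 0.

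Values with no call that changed sign were the log2 fold change of *Cdh15* (-0.34 without GM replicate 2 and -0.30 without 3d DM replicate 2) and the log2 fold enrichments of *Cdh2* region 6 (-0.35 without GM replicate 2, -0.17 without 3d DM replicate 2) and *Jam2* region 2 (0.08 with list medians subtracted, 0.17 without GM replicate 1, 0.21 without 3d DM replicate 1). With 1 replicate left out these 3 ran from -0.34 to 0.51, from -0.35 to 0.38 and from -0.27 to 0.21. Of the other recomputed values, 138 for single genes or regions and 64 counts kept their direction and side of the threshold, or stayed within 1.5 times.

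GM and 3d DM replicates share only a number. Over the tested genes, the difference between the GM replicates correlated with that between the 3d DM replicates at 0.29, from 2 pairs. With the replicate number as a block, 593 genes were called higher and 705 lower, 2 and 0 of the members, 7 and 3 of the other fusion genes, and 0 regions.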

Other observations

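*Tmsb4x*, which encodes thymosin beta 4, an actin monomer binding protein that is abundant in many cell types, was listed at 1.065 and 0.001043 in the GM libraries, against 1.536 and 4.563 in 3d DM, and was not tested. It had been placed in the list of Rac, actin and membrane genes for its role in actin supply.

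The fibroblast marker *Dcn*, which encodes the matrix proteoglycan decorin, had values of 429.9 in GM replicate 1 and 17.11 in GM replicate 2, against 409.1 and 684.9 in the 3d DM libraries. Its log2 fold change was 2.59 (limma, adjusted p = 9.75e-07), a call that was lost after median-of-ratios rescaling (limma, adjusted p = 0.147). The GM replicates were 25.1-fold apart, wider than those of *Mymk* (6.88-fold) and *Mymx* (7.59-fold). Of the other fibroblast markers *Thy1* was listed at 0 in all 4 libraries and *Pdgfra* ran from 36.15 to 97.03.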
